A study of Mus musculus with 22 samples.

Results

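The genes of 10 neuronal immunoglobulin cell adhesion molecules were followed in single mouse retinal cells: the L1 family members L1cam, Nrcam and Chl1, the contactins Cntn1 and Cntn2, Ncam1, Alcam, Dscam, and the sidekicks Sdk1 and Sdk2. They were chosen by name and not by a rule on their measured values, though earlier results of these data were known. They are 10 of the 18193 genes on the array that were listed with 1 gene symbol. Their 38 probe sets were read in all 22 cells. Each cell had been picked from a papain-dissociated retina, its RNA copied from the poly(A) tail with an oligo dT primer, and the product amplified by PCR and hybridised to an Affymetrix mouse array. The groups were 13 ganglion cells, whose axons form the optic nerve, 6 amacrine cells, which are mostly inhibitory interneurons, and 3 photoreceptors. At embryonic day (E) 12.5 there were 3 ganglion cells, with 1 cell at E13.5, 2 cells at E14.5, 3 cells at E15.5, and 4 cells at the day of birth (P0). There was 1 amacrine cell at E16.5 and 5 at P0, and the photoreceptors were 1 adult rod and 2 cells of P0. The CD1 strain was given for 9 of the 22 cells, no strain was given for the others, and no genetic change or treatment was named. No animal was named for any cell, so cells of a type and stage may share an animal.

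Immunoglobulin adhesion molecules sit on the surface of growing axons and dendrites and bind each other within a membrane and across to a neighbouring cell. L1 family proteins span the membrane and couple through ankyrins to spectrin, contactins are held to the membrane by a lipid anchor and signal through partners, and NCAM carries polysialic acid that loosens contact. In the retina, L1 and NCAM are known from ganglion cell axons, TAG-1 (the product of Cntn2) from axon bundles, and Dscam and sidekick proteins from the spacing of neurites and their sorting into synaptic layers.

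The deposited values are MAS5 signals, a linear measure of array brightness. A signal of 1000 or more is called detected here, and signals below 200 were raised to that floor (log2 7.64) before taking log2. A signal below 1000 was not read as absence of the transcript. Between 1517 and 4351 genes were detected per ganglion cell, and between 1927 and 4131 per amacrine cell. The cell names rest on the same arrays, since the authors assigned types after profiling. Ganglion markers were detected in numbers of 7 to 12 of 14 per ganglion cell, against 0 to 4 per amacrine cell, and amacrine markers in numbers of 1 to 3 of 12 per ganglion cell, against 4 to 7 per amacrine cell. Photoreceptor markers were detected in numbers of 8 to 10 of 11 per photoreceptor. Several arrays stood apart. The adult rod and the E16.5 amacrine cell J6 had signals above the floor for 55.0% and 57.9% of genes, against 20.6% to 37.2% in ganglion cells. The ganglion cell E1 of E14.5 held 7 of 9 progenitor and cell cycle genes, and the P0 photoreceptor H1 held 4 of 8 glial genes. The array of P0 amacrine cell B1 was deposited on a lower scale and was rescaled to the others.

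By the chosen probe sets, 68 of the 220 pairs of an adhesion gene and a cell were detected. Over all 18193 genes, between 1517 and 4351 were detected per cell. Ncam1 and L1cam were the broadly detected members in ganglion cells, Nrcam, Cntn1, Cntn2 and Chl1 were each high in some ganglion cells and at the floor in others, and Alcam, Dscam, Sdk1 and Sdk2 were at or near the floor in most cells. The 7 members that reached 1000 in at least 3 cells entered the tests, and Alcam, Sdk1 and Sdk2 did not. Of all tested genes, 8.72% were detected in at least as many ganglion cells as L1cam, and 30.2% in as many as Nrcam. The share was 39.0% for Cntn1 and for Cntn2, 61.5% for Chl1 and 98.3% for Dscam. For amacrine cells it was 11.7% for Ncam1, 62.1% for L1cam, Nrcam and Dscam, and 85.5% for Cntn1.

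**Figure D1:**
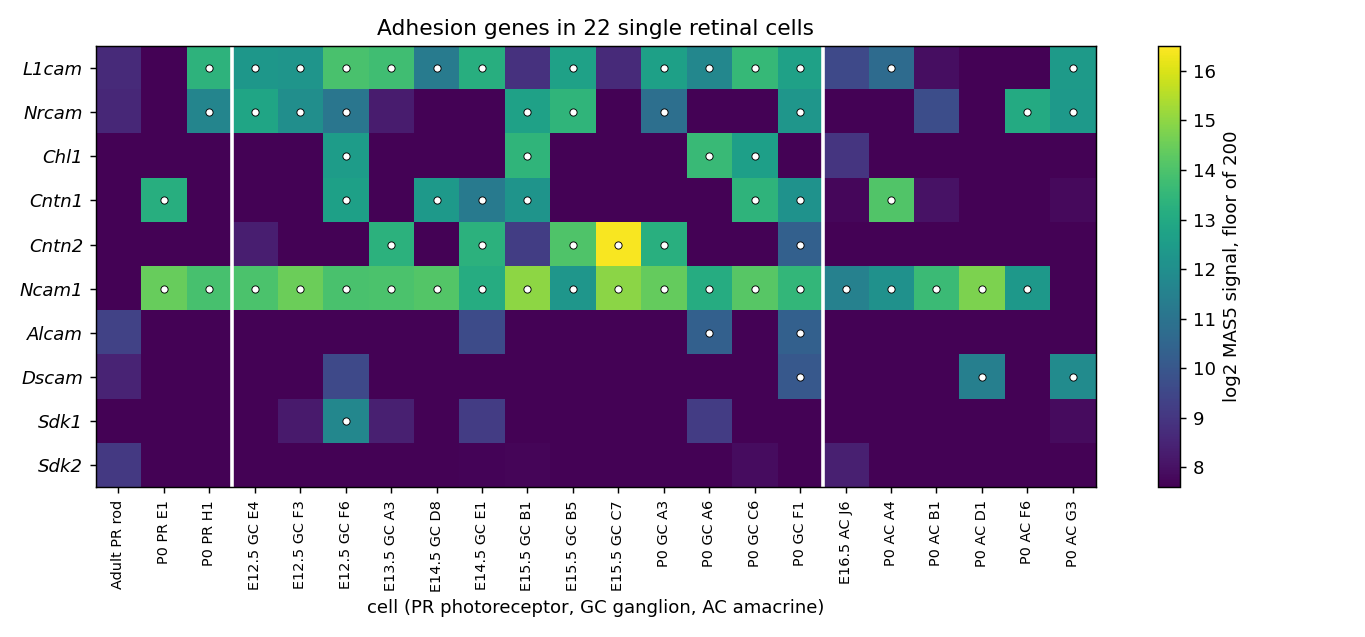
Log2 MAS5 signal, with a floor of 200, of the 10 adhesion genes (down) in the 22 single cells (across), with white lines between photoreceptors (PR), ganglion cells (GC) and amacrine cells (AC); a white dot marks a signal of 1000 or more. Ncam1 carries a dot in all 13 ganglion cells, whereas the dots of Cntn2 and Chl1 fall in different ganglion cells; colours compare cells within a gene, not genes with each other.

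L1cam encodes the founding member of the L1 family, which promotes axon growth and bundling. The promoter window that RefSeq gives for 1 of its 2 listed starts is shown because L1cam had, with Cntn2, the largest difference between ganglion and amacrine cells among the members. It lies on GRCm38.p6 at chrX:73880741-73881040, minus strand, and capitals mark a match on either strand to GGGCGG (the GC box) or CANNTG (the E-box, bound by basic helix-loop-helix factors).
L1cam promoter: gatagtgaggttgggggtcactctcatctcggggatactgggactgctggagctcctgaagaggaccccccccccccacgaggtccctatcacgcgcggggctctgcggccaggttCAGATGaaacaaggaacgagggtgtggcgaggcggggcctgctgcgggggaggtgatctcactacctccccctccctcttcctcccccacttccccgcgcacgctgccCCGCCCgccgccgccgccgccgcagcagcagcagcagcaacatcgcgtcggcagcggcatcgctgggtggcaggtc

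The 3 ganglion cells of E12.5 had L1cam signals of 5033, 4884 and 15724, and the single cell of E13.5 had 14052. At E14.5 the signals were 2533 and 9364, and at E15.5 they were 471, 6601 and 408. The 4 ganglion cells of P0 had 6460, 3386, 12212 and 6609. L1cam was thus detected in 11 of 13 ganglion cells, and both cells below the threshold were of E15.5. The second L1cam probe set gave fewer detections, in 3 of the 13 ganglion cells (B5 of E15.5 with 1232, and A6 and C6 of P0 with 1604 and 1255), 1 of the 6 amacrine cells (G3 with 2658) and photoreceptor H1 with 5101, all of them cells that the chosen probe set also detected. Amacrine cells had 764 at E16.5 and, at P0, 1690, 246, 5569 and a pair of values under the floor of 200, so that 2 of 6 were detected. All 4 P0 ganglion cells lay above 4 of the 5 P0 amacrine cells, while amacrine cell G3, with 5569, lay within their range. Averaged over type-and-stage samples, L1cam was at log2 12.32 ± 1.37 in ganglion cells (SD, n = 5 samples) and 9.43 ± 0.21 in amacrine cells (SD, n = 2 samples).

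Ncam1 encodes NCAM, an adhesion molecule of most neurons. Its signals in ganglion cells were 16275, 23117 and 15930 at E12.5, 16179 at E13.5, 17598 and 8888 at E14.5, 32407, 4914 and 32081 at E15.5, and 21594, 8931, 18616 and 11393 at P0. By the chosen probe set every ganglion cell was therefore well above the detection threshold, and the stages overlapped. Amacrine cells had 2921 at E16.5 and 4372, 13102, 27379, 5187 and 101 at P0. G3, the P0 cell with 101, was the only ganglion or amacrine cell in which Ncam1 was not detected. Of the 7 Ncam1 probe sets, 3 reached 1000 in no cell. A second probe set reached 1000 in 5 of 13 ganglion cells and 2 of 6 amacrine cells. Another did so in 5 ganglion cells and no amacrine cell, and another in no cell of either type. Detection in all 13 ganglion cells, here by the chosen probe set, was shared with 200 of the 7183 tested genes (2.78%, Ncam1 included). In sample means, Ncam1 was at log2 13.92 ± 0.22 in ganglion cells (SD, n = 5 samples) and 11.81 ± 0.42 in amacrine cells (SD, n = 2 samples).

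Cntn2 encodes contactin 2, or TAG-1, a lipid-anchored axonal molecule. Its RefSeq promoter window is shown for the same reason as that of L1cam, and lies on GRCm38.p6 at chr1:132542891-132543190, minus strand, with a CANNTG match in capitals.
Cntn2 promoter: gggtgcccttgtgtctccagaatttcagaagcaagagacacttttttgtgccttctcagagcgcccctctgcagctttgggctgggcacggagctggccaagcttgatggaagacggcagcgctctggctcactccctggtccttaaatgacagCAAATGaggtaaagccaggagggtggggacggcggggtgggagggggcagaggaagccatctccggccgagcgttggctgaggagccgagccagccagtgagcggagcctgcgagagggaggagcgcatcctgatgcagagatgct

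None of the 3 ganglion cells of E12.5 had Cntn2 above 324. The cell of E13.5 had 10323, the cells of E14.5 had 12.0 and 10188, those of E15.5 had 596, 16880 and 87015, and those of P0 had 9468, 66.7, 31.1 and 1298. The values split into cells at or near the floor and cells at 9468 or more, with ganglion cell F1 of P0 (1298) and B1 of E15.5 (596) between them. All 6 amacrine cells were at the floor, the highest with 103. A second Cntn2 probe set was high in 4 of the same ganglion cells, with 13538, 7502, 11252 and 7794 in A3 of E13.5, E1 of E14.5, and B5 and C7 of E15.5, and read 705 in A3 and 12.9 in F1 of P0. Sample means were log2 10.92 ± 2.35 in ganglion cells (SD, n = 5 samples) and the floor of 7.64 in both amacrine samples, so the difference depends on that floor. The lens and pigment epithelium list averaged log2 10.11 in E1 of E14.5 and 8.52 in A3 of E13.5, which had Cntn2, and 9.74 in D8 of E14.5, which did not. In P0 cell A3, which had Cntn2 at 9468, that list was at the floor and the blood list was at 7.74. In C7 and B5 of E15.5, with Cntn2 at 87015 and 16880, the lens list was at 7.69 and 7.64. Their blood list was at 8.93 and 8.98, against 9.03 in B1 of E15.5, with Cntn2 at 596. Whether these lists have a part in the Cntn2 signals was not tested.

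Chl1 encodes the close homolog of L1. Its window is shown beside that of Cntn2 because the 2 genes were detected in different ganglion cells. It lies on GRCm38.p6 at chr6:103510626-103510925, plus strand, and holds none of the motifs searched.
Chl1 promoter: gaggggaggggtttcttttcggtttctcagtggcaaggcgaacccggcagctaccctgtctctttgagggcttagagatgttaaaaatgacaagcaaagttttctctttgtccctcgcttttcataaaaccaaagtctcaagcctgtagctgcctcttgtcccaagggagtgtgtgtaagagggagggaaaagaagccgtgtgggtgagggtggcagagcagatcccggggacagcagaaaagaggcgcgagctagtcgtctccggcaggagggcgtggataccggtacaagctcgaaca

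Chl1 was detected in 4 ganglion cells, with 5817 in F6 of E12.5, 10964 in B1 of E15.5, and 12751 and 6367 in A6 and C6 of P0. The other 9 ganglion cells were at the floor of 200 or below it by the chosen probe set. The other 3 Chl1 probe sets reached 1000 in no cell, the 4 ganglion cells above included, and their highest signal was 684, in F1 of P0. No amacrine cell was detected, and the highest was J6 of E16.5 with 504. None of the 4 ganglion cells with Chl1 had Cntn2 detected: 4 cells had Chl1 alone, 6 had Cntn2 alone and 3 had neither. At a detection threshold of 500 in place of 1000, B1 of E15.5 held both, since its Cntn2 signal was 596, and at 2000 no cell did. The split was found by looking over the pairs of members and was not tested.

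Nrcam, the third L1 family member, binds ankyrin and contactins. Its ganglion cell signals were 7308, 4044 and 2177 at E12.5, 309 at E13.5, under the floor in both cells of E14.5, 6650 and 11114 in 2 of 3 cells at E15.5, and 1855 and 4981 in 2 of 4 cells at P0. The 3 cells of E12.5 and 4 later cells were therefore detected by the chosen probe set. In amacrine cells Nrcam was under the floor at E16.5, and at P0 it read 832 in B1, 8432 in F6, 5390 in G3 and under the floor in A4 and D1. A second Nrcam probe set reached 1000 in 2 of the 13 ganglion cells, E4 of E12.5 with 11026 and F1 of P0 with 1242. In P0 amacrine cells it read 1483 in D1, 5053 in G3 and 601 in F6. Detection of Nrcam thus depended on the probe set in ganglion and amacrine cells. Of the 4 Nrcam probe sets, 2 reached 1000 in no cell.

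Cntn1 encodes contactin 1, a partner of Nrcam and of receptor phosphatases. It was detected in 6 ganglion cells, with 6441 in F6 of E12.5, 5526 and 2388 in D8 and E1 of E14.5, 4706 in B1 of E15.5, and 10776 and 4485 in C6 and F1 of P0. The other 7 ganglion cells were at the floor. Of the amacrine cells, A4 of P0 had 17291, the highest Cntn1 signal of the 22 cells, while the other 5 had 264 or less. These are signals of the chosen probe set. The other Cntn1 probe sets detected the gene in no ganglion or amacrine cell. A second probe set read 51.7 in A4 of P0 and at most 775 in ganglion cells, in B1 of E15.5. It was above the detection threshold only in P0 photoreceptor E1, with 2414. The remaining probe set had its highest signal, 648, in the adult rod. By the chosen probe sets, at least 1 contactin was detected in 10 of 13 ganglion cells and in 1 of 6 amacrine cells. Both contactins were detected in 2 ganglion cells and in no amacrine cell. At least 1 of L1cam, Nrcam and Chl1 was detected by the chosen probe sets in 12 of 13 ganglion cells and 3 of 6 amacrine cells.

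**Figure D2:**
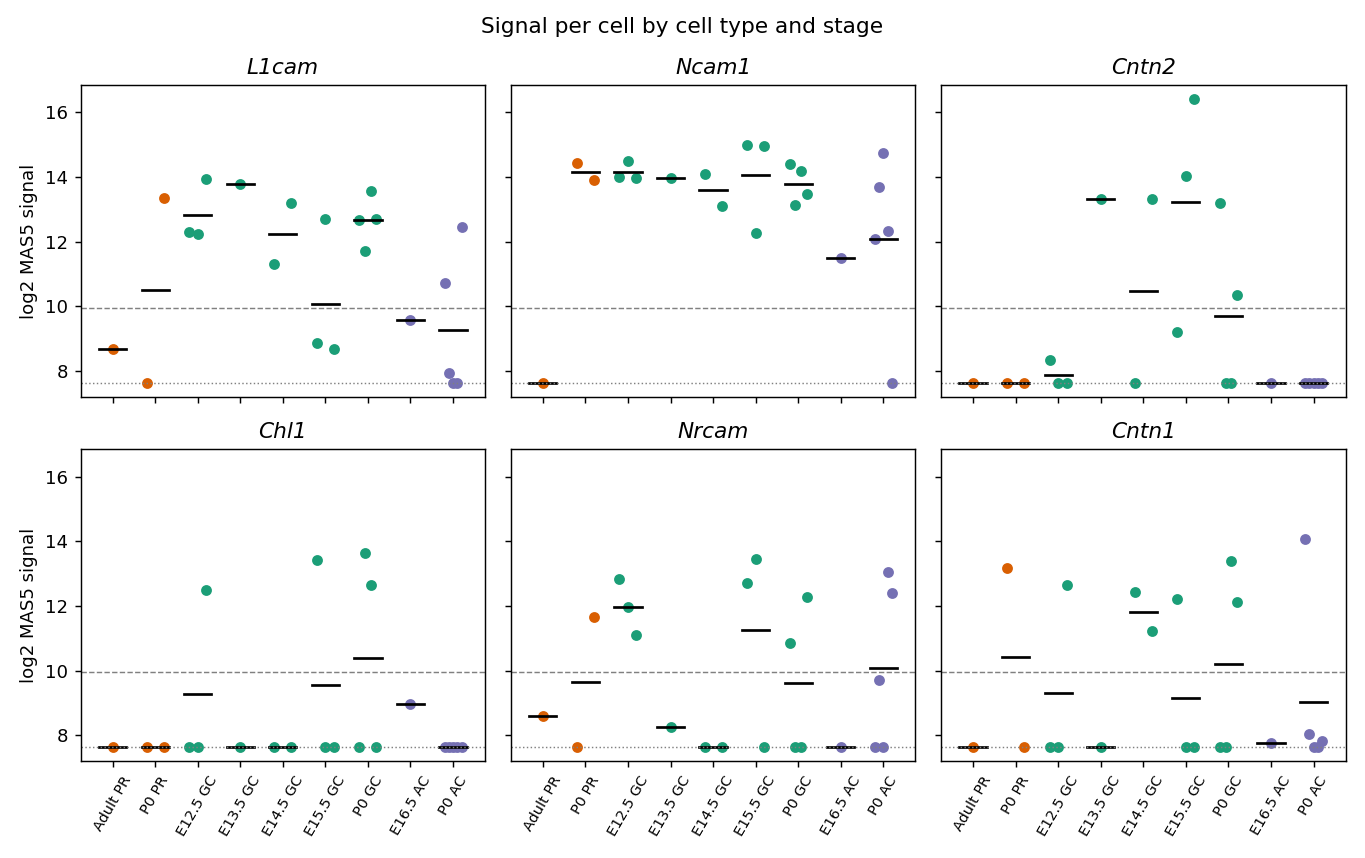
Log2 MAS5 signal of 6 adhesion genes in each cell by type and stage (PR photoreceptor, GC ganglion, AC amacrine); points are cells, black bars are group means, the dotted line is the floor of 200 and the dashed line the detection threshold of 1000. Ncam1 stays above the threshold in every ganglion cell, and Cntn2, Chl1, Nrcam and Cntn1 run from the floor to far above the threshold within ganglion cells.

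The remaining members were rare. Alcam, whose product ALCAM binds itself and CD6, was detected in ganglion cells A6 and F1 of P0 with 1295 and 1280, and in no amacrine cell. Dscam was detected in ganglion cell F1 of P0 with 1053, and in amacrine cells D1 and G3 of P0 with 2758 and 3843. Other Dscam probe sets read 5180 in ganglion cell C6 of P0, 1231 in F6 of E12.5 and 1179 in the adult rod, cells in which the chosen probe set was below 1000. Sdk1 was detected in ganglion cell F6 of E12.5 with 3338, and by a second probe set in ganglion cell A3 of E13.5 with 4155. Sdk2 was not detected in any cell, and its highest signal was 538 in the adult rod. Over the 38 probe sets, 22 reached 1000 in at least 1 cell and 16 in none. Counting any probe set of a member raised the detected pairs to 74, and the 6 added pairs were 3 of Dscam, 2 of Nrcam and 1 of Sdk1.

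Promoter windows were given for 9 of the 10 genes, all but Ncam1. Searched on both strands, TATAAA was in 13.6% of the 32851 RefSeq windows of 300 bases, CCAAT in 37.4%, GGGCGG in 35.7% and CANNTG in 72.3%. The windows of L1cam shown above, Cntn2 and Chl1 held 25, 13 and 13 CG dinucleotides, against a median of 7 over all windows. Both L1cam windows held GGGCGG and CANNTG, the Cntn2 window held CANNTG alone, and the Dscam window, like that of Chl1, held none of the 4 motifs. These are descriptions of letters in a window.

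Ganglion cells were compared with amacrine cells over 9 samples, each the mean of the cells of a type and stage, with limma. The p-values measure only the spread between these samples. That spread, and so each standard error, came from a trend over expression level in all genes tested, not from each gene alone. None of the 7 tested members passed at an adjusted p of 0.05, in a comparison that called 5 of 7183 genes (0.0696%), 3 higher in ganglion cells (0.0418%) and 2 lower (0.0278%). At an unadjusted p under 0.05 there were 283 genes, Cntn2 among them. Cntn2 was 3.28 ± 1.35 log2 units higher in ganglion cells (standard error, limma unadjusted p = 0.0151), and L1cam 2.89 ± 1.48 higher (limma unadjusted p = 0.0501). Ordered by absolute difference among the genes tested, Cntn2 had rank 49 and L1cam rank 99. Ncam1 differed by 2.12 ± 1.36, Cntn1 by 1.22 ± 1.29, Nrcam by 0.89 ± 1.34, Chl1 by 0.59 ± 0.92 and Dscam by -0.56 ± 0.65, none of them at an unadjusted p under 0.05. All 7 had a limma adjusted p of 0.999. Of the 7 differences, 6 were positive, with a median of 1.22, against -0.06 over all genes tested. Cntn2 and Chl1 entered the fit through ganglion cells alone, so the filter itself favoured a positive difference for them. Cntn1 met the filter only with ganglion cells counted, which favoured the same direction. With means over probe sets, Cntn2 differed by 1.62 and L1cam by 1.63, the only members tested under that setting. Several smaller differences rested on single cells. Without J6, the only amacrine cell of E16.5, Nrcam was -0.33, Cntn1 0.58, Chl1 1.26 and Dscam -1.36. Cntn1 was 1.85 without amacrine cell A4 of P0, and Nrcam was 0.58 without either A4 or D1 of P0. Chl1 was 0.21 without B1 of E15.5, 0.27 without F6 of E12.5, 0.38 without A6 of P0 and 0.91 without A3 of E13.5. No member that could be tested passed under another setting.

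**Figure D3:**
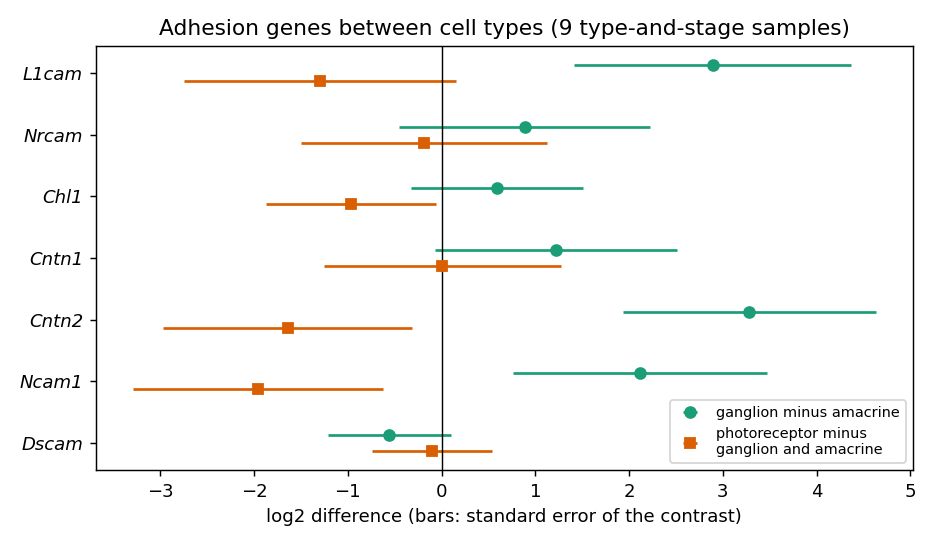
Log2 difference of the 7 tested adhesion genes for ganglion minus amacrine cells (green circles) and photoreceptors minus the mean of ganglion and amacrine cells (orange squares), over 9 type-and-stage samples; bars are standard errors of the contrast. The circles of Cntn2 (3.28) and L1cam (2.89) lie farthest from 0, and the bars of Nrcam, Cntn1 and Dscam cross 0 in both contrasts.

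P0 was the only stage with both types, and allows no test. The P0 ganglion cells minus the P0 amacrine cells gave 3.38 log2 units for L1cam, 2.75 for Chl1, 2.07 for Cntn2, 1.70 for Ncam1, 1.34 for Alcam and 1.16 for Cntn1. Sdk1 and Sdk2 differed by 0.34 and 0.06, and Nrcam and Dscam by -0.48 and -1.01. On leaving out 1 cell at a time, L1cam ran from 2.97 to 4.17, Chl1 from 1.66 (without ganglion cell A6) to 3.66, Cntn2 from 0.90 (without ganglion cell A3) to 2.75, Ncam1 from 0.58 (without amacrine cell G3) to 2.36 and Alcam from 0.89 (without ganglion cell A6) to 1.79. Cntn1 ran from 0.09 without ganglion cell C6 to 2.42 without amacrine cell A4. Dscam ran from -1.61 without ganglion cell F1 to -0.35 without amacrine cell G3. The sign of Nrcam turned, from -1.37 without ganglion cell F1 to 0.26 without amacrine cell F6, and Sdk1 was -0.05 without ganglion cell A6. With all cells, of the 10, 8 were higher in ganglion cells, but no member had all ganglion cells above all amacrine cells, a pattern that 1.66% of the tested genes showed, or all below, which 0.334% showed. With medians over cells in place of means, 6 of the 10 were higher in ganglion cells.

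Photoreceptors were compared with the mean of ganglion and amacrine cells in the same fit, which called 153 of 7183 genes (2.13%), 108 higher in photoreceptors (1.5%) and 45 lower (0.626%). No member passed. By the chosen probe set both P0 photoreceptors had Ncam1, with 22032 in E1 and 15320 in H1, while the adult rod had 135. A second Ncam1 probe set read 149 in E1 and 3923 in H1. L1cam and Nrcam were detected in H1, with 10402 and 3211, and not in E1 or the rod. Cntn1 read 9300 in E1 and was at the floor in H1 and the rod, so by the chosen probe sets the 2 P0 photoreceptors shared Ncam1 alone. A second Nrcam probe set read 8969 in E1. H1 also carried the glial list at a mean of log2 10.43 and the progenitor list at 10.27, against 7.64 and 7.66 in E1. Whether these have a part in its L1cam and Nrcam signals was not tested. Cntn2, Chl1, Alcam, Dscam, Sdk1 and Sdk2 were below 1000 in all 3 photoreceptors by their chosen probe sets.

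The largest member differences of photoreceptors were -1.96 ± 1.33 log2 units for Ncam1 (limma adjusted p = 0.557) and -1.64 ± 1.33 for Cntn2 (limma adjusted p = 0.613). L1cam differed by -1.29 ± 1.45, Chl1 by -0.96 ± 0.90, Nrcam by -0.19 ± 1.32, Dscam by -0.10 ± 0.64 and Cntn1 by 0.01 ± 1.27. The median of the 7 was -0.96, against -0.57 over all genes. Ncam1 rested on 1 cell: without the adult rod its difference was 1.30. Without the P0 photoreceptor E1, L1cam was 0.13, Nrcam 0.81 and Cntn1 -1.37, each opposite in sign to its value with both cells.

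Between the adult rod and the P0 photoreceptors, Ncam1 differed most, by -6.52 log2 units, with the rod below both P0 cells. In this comparison 15.6% of the tested genes had the rod below both P0 cells and 30.7% above both. Cntn1 differed by -2.77, L1cam by -1.82 and Nrcam by -1.05, each carried by 1 of the 2 P0 cells. The rod was higher for Alcam (1.71), Sdk2 (1.43) and Dscam (0.86), all from rod signals under 1000 against the floor. Chl1, Cntn2 and Sdk1 were at the floor in all 3 cells. By the chosen probe sets the rod detected 2511 of the 18193 genes and none of the 10 members. Another Dscam probe set read 1179 in the rod.

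Across the 5 ganglion cell stages from E12.5 to P0, 6 members entered a limma trend over stage means, which called 1 of 5595 genes (0.0179%) and no member. At an unadjusted p under 0.05 there were 91 genes and none of the members. The slopes per step were 0.42 ± 0.48 for Chl1, 0.36 ± 0.56 for Cntn2, 0.33 ± 0.60 for Cntn1, -0.06 ± 0.28 for Ncam1, -0.17 ± 0.60 for Nrcam and -0.40 ± 0.44 for L1cam, and none exceeded its standard error. Cntn2 had its highest stage mean at E13.5 (13.33) and E15.5 (13.22), and was at 7.88 at E12.5, 10.48 at E14.5 and 9.71 at P0. L1cam was lowest at E15.5, with 10.08 ± 2.26 (SD, n = 3 cells), against 12.25 to 13.78 at the other stages.

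By cell, the members formed 15 different combinations in the 19 ganglion and amacrine cells. There were 11 combinations in the 13 ganglion cells and 5 in the 6 amacrine cells, with L1cam, Cntn1 and Ncam1 together found in both types, in ganglion cell D8 of E14.5 and amacrine cell A4 of P0. Ganglion cells E4 and F3 of E12.5 shared L1cam, Nrcam and Ncam1, as did the photoreceptor H1. Ganglion cells B5 of E15.5 and A3 of P0 shared L1cam, Nrcam, Cntn2 and Ncam1. Amacrine cells J6 of E16.5 and B1 of P0 had Ncam1 alone. The other 11 cells each had a combination seen once. Within a stage, the 4 ganglion cells of P0, the 3 of E15.5 and the 5 amacrine cells of P0 had no combination in common. The count of combinations ran from 14 to 16 under the other thresholds and scalings. On signals as deposited, without rescaling its array, amacrine cell B1 of P0 had no member.

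A ganglion cell held a median of 4 members (2 to 7), against 2 in an amacrine cell (1 to 3). Of all 18193 genes, 1517 to 4351 were detected per ganglion cell and 1927 to 4131 per amacrine cell. Ganglion cell F1 of P0 had 7 of the 10, all but Chl1, Sdk1 and Sdk2, and also the most genes detected, 4351. F6 of E12.5 had 6, with 3608 genes detected, and C7 of E15.5 had 2, with 1517, the fewest of all cells. Ganglion cell A6 of P0 detected 2292 genes and 4 members, and amacrine cells F6 of P0 and J6 of E16.5 detected 4131 and 3717 genes and 2 and 1 members. The part of the number of genes detected in the count of members was not tested. Amacrine cell G3 of P0 was the exception within its type, with L1cam, Nrcam and Dscam but no Ncam1.

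**Figure D4:**
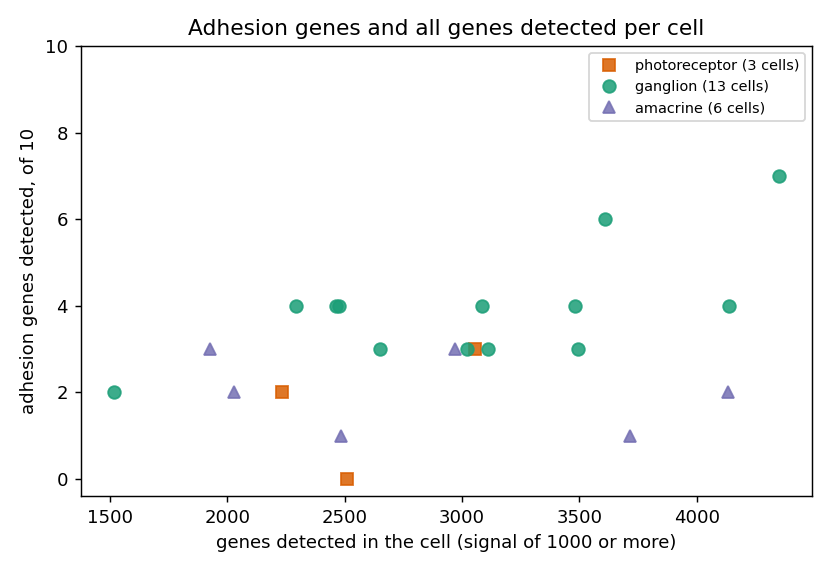
Number of the 10 adhesion genes detected (vertical) against the number of all genes detected (horizontal) in each of 3 photoreceptors, 13 ganglion cells and 6 amacrine cells; detection is a signal of 1000 or more. Ganglion cells hold 2 to 7 members and amacrine cells 1 to 3 over overlapping ranges of genes detected.

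The genes whose log2 signal followed a member most closely over the 22 cells are given as a description, since all values of a cell come from 1 amplification and no p was computed. Ncam1 had no close match: its highest Pearson correlation was 0.65, with Mdm4, an inhibitor of p53. L1cam was matched best by Dnajc5 (0.76), a synaptic vesicle chaperone, then Uqcc3 (0.75) and Carm1 (0.72). The correlations of rarer members rested on few cells. Cntn2 had 0.79 with Arvcf, a catenin, detected together in 5 cells, 0.77 with Mtmr12 and 0.77 with Peli2. Chl1 had 0.85 with Clec18a, detected together in 3 cells, 0.85 with Txnrd3 and 0.81 with Srm. Nrcam had 0.79 with Rusc2, 0.73 with Dhx36 and 0.70 with Ube3a, and Cntn1 had 0.77 with Mapk14, 0.74 with Yeats4 and 0.73 with Nsd1. Dscam, detected in 3 cells, had 0.94 with Yipf6, 0.82 with Amy1 and 0.81 with Ndufaf7. No member was among these matches of another.

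Other genes of the adhesion machinery were read from 4 lists. Of 35 further immunoglobulin adhesion genes 14 were tested, and none passed between ganglion and amacrine cells, where their median difference was 0.03. The largest was Nfasc, which encodes the fourth L1 family member neurofascin. It was detected in 10 of 13 ganglion cells and 0 of 6 amacrine cells and differed by 3.64 ± 1.44 log2 units. No photoreceptor reached 1000, so Nfasc entered the fit through ganglion cells alone and the filter favoured a positive difference. Cadm3 and Nectin1, synaptic and junctional adhesion genes, differed by -1.26 ± 1.06 and -0.79 ± 1.03, and without J6 of E16.5 by -0.09 and -0.27. Of 16 genes for the membrane skeleton 7 were tested, 4 with a positive and 3 with a negative difference and a median of 0.52. Ank2, an ankyrin that binds L1 family proteins, was detected in 13 of 13 ganglion cells and 3 of 6 amacrine cells and differed by 3.57 ± 1.48, and by 1.75 without J6 of E16.5. Msn and Rdx, which link membrane proteins to actin, differed by 2.30 ± 1.26 and 1.58 ± 1.47, with Msn at 1.36 without ganglion cell A3 of E13.5 and Rdx at 0.79 without J6. Msn was detected in 4 of 13 ganglion cells, 0 of 6 amacrine cells and 1 photoreceptor. It met the filter only with ganglion cells counted, which favoured a positive difference. Both amacrine samples were at the floor for Msn, so its difference depends on that floor. Ank3, another ankyrin gene, differed by -0.02 ± 1.48. The spectrin gene Sptan1 was detected in 13 of 13 ganglion cells and 6 of 6 amacrine cells and differed by -0.21 ± 1.27.

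Of 16 partner genes 14 were tested, with a median of 0.55. Nrp1, a semaphorin receptor that forms a complex with L1, was detected in 9 of 13 ganglion cells and 0 of 6 amacrine cells and differed by 3.42 ± 1.42. It too was detected in ganglion cells alone, so the filter favoured this direction. App and Aplp1, of the amyloid precursor family, differed by 3.40 ± 1.44 and 1.40 ± 1.34, and App was detected in 12 of 13 ganglion cells and 1 of 6 amacrine cells. Of 8 processing enzymes 4 were tested, with a median of 1.46. St8sia2, which builds polysialic acid on NCAM, was detected in 10 of 13 ganglion cells and 1 of 6 amacrine cells and differed by 3.61 ± 1.43. Adam10, a protease that sheds L1, was detected in 12 of 13 and 6 of 6 and differed by 2.24 ± 1.37, and by 0.96 without J6, while Mmp2 differed by 0.69 ± 0.83. App, St8sia2 and Mmp2 met the filter only with ganglion cells counted, which favoured a positive difference for them. With means over probe sets App differed by 1.25, St8sia2 by 1.82 and Adam10 by 1.05. None of these genes passed, each with a limma adjusted p of 0.999, and none of the 4 lists had a called gene in the ganglion stage trend.

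In the photoreceptor comparison 1 of the 14 further immunoglobulin adhesion genes and 1 of the 7 membrane skeleton genes passed. Nptn, which encodes neuroplastin, was 5.37 ± 1.36 log2 units higher (limma adjusted p = 0.00841), at 13.83 in photoreceptors, 8.56 in ganglion cells and 8.35 in amacrine cells. The adult rod was at 16.86, and of the P0 photoreceptors E1 was at 13.94 and H1 at the floor. Without the rod the difference was 2.34 (limma adjusted p = 0.751), without E1 of P0 it was 3.80 (adjusted p = 0.142), and without amacrine cell J6 it was 5.49 (adjusted p = 0.110). Sptbn1, which encodes a beta spectrin, fell by 4.87 ± 1.37 on the log2 scale (limma adjusted p = 0.0242), with 8.61 in photoreceptors, 13.75 in ganglion cells and 13.23 in amacrine cells. It was detected in all 13 ganglion cells and all 6 amacrine cells and in none of 3 photoreceptors. Without J6 its difference was -4.98 (limma adjusted p = 0.149), and without the rod -3.90 (adjusted p = 0.0574).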

How the data were processed

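The authors deposited MAS5 signal intensity values, which are linear and came without detection calls, for 45101 probe sets on 22 arrays, per the series' design text and the submitters' processing notes. In the deposited values 21 arrays had a 2% trimmed mean of 500, and the array of P0 amacrine cell B1 was rescaled to it. The annotation gave 34945 probe sets 1 gene symbol, 932 several and 9211 none. Of those with 1 symbol, 34741 matched the RefSeq gene table by gene number. After removing 64 controls, the probe set with the highest mean floored log2 signal stood for each of 18193 genes.

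Genes at 1000 or more in at least 3 cells were tested (7183). Cells of a type and stage were averaged, because no animal is named. Means per cell type were fitted by lmFit and trended eBayes of limma 3.58.1 (R 4.3.3), leaving 6 residual degrees of freedom, and ganglion stages with a slope (3 residual degrees of freedom), with Benjamini-Hochberg adjustment over all genes tested. The prior degrees of freedom were infinite, so each gene's spread came from the trend over expression level. Tables and figures were made in Python 3.11.15 with pandas 2.3.3 and matplotlib 3.10.9. P0 alone holds all 3 types, so type and stage are partly confounded, and P0 samples may share an animal. Precision is limited by the number of arrays.

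The members and lists were chosen with earlier results of these data known. All members are named. Of the 4 lists, genes that passed and the 3 with the largest ganglion minus amacrine difference are named, within a rule that allowed up to 5 of the largest and 3 of the most widely detected. Sptan1, among the most widely detected, and Ank3, outside that rule, are named beside Ank2. The 3 most similar genes are named for each member detected in at least 3 cells. Alternatives were other floors, filters, probe set summaries, normalizations, models and cells left out. Leaving out J6 with the rod, or the ganglion cells of 2 stages, was chosen after seeing the data. Scanner files were not used here. As a check, the fits were run on the same values permuted over cells within each gene, with known shifts added to some genes. That check did not exercise the detection filter, and its outcome is not given here. Promoters are from RefSeq, GRCm38.p6.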

Additional observations from a re-analysis of the deposited data

Results flagged for a closer look

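In 5 of the 16 combinations of a member and a P0 group whose cells differed after flooring, the gap between 1 cell and the next was a large share of the group's range. In P0 amacrine cells, Cntn1 was 17291 in A4 by the chosen probe set, and the next highest cell was at log2 8.05. The other Cntn1 probe sets did not detect the gene in A4. In the other 4 cases every other cell of the group was at the floor, so that any signal above 200 would have stood out in this way, and no excess over chance can be read from the count. In P0 ganglion cells these were Dscam with 1053 in F1, Sdk1 with 587 in A6 and Sdk2 with 239 in C6, and in P0 amacrine cells Sdk1 with 234 in G3. The last 3 signals lie below the detection threshold.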

How the results depend on the processing

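No member that could be tested passed in any of the 3 comparisons under any setting, cells left out included. With means over probe sets L1cam and Cntn2 were the only members tested. The number of genes called for ganglion minus amacrine cells (5) was 1 with a floor of 400, 31 with no filter on dim genes, 1 with means over probe sets, 10 with quantile normalization, 2 on signals as deposited, 8 with gene-wise variances, 0 with medians over cells, 22 with each cell as a sample, 2 without J6 and the rod, 0 without the ganglion cells of E13.5 and E14.5, and 0 without those of E14.5 and E15.5. Leaving out single cells gave 1 to 9. For photoreceptors (153) it was 56 with no filter, 44 with means over probe sets, 51 with gene-wise variances, 47 with medians, 27 without J6 and the rod, 66 without the ganglion cells of E13.5 and E14.5, and 67 without those of E14.5 and E15.5. Leaving out single cells gave 44 to 161. For the stage trend (1) it was 0 with no filter, means over probe sets, eBayes without trend, gene-wise variances or without E13.5 and E14.5, and 9 without E14.5 and E15.5, against 0 to 1 on leaving out single cells. The rod exceeded the P0 photoreceptors in 3 members, in 6 with means over probe sets, in 1 with quantile normalization, and in 3 to 5 on leaving out a cell.

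Signs reversed for ganglion minus amacrine cells in Nrcam without J6 and the rod (-0.33; -0.33 to 1.26 on leaving out single cells) and Chl1 with medians (-0.17). For photoreceptors they reversed with a floor of 100 in Nrcam (0.057), Cntn1 (-0.41) and Dscam (0.23), with medians in Dscam (0.43), with means over probe sets in L1cam (0.077), with quantile normalization in Cntn1 (-0.080), and without J6 and the rod in Ncam1 (1.15). Msn turned to 0.50 with each cell as a sample, 0.77 without J6 and the rod, and 0.40 without the ganglion cells of E13.5 and E14.5. Ncam1 had a stage slope of 0.067 with medians. Leaving out single cells gave photoreceptor differences of -2.72 to 0.13 for L1cam, -1.19 to 0.81 for Nrcam, -1.37 to 1.39 for Cntn1, -2.24 to 1.30 for Ncam1, -1.09 to 1.69 for Nectin1, -1.15 to 0.77 for Msn and -2.27 to 0.10 for Rdx. It gave slopes of -0.41 to 0.0074 for Nrcam and -0.11 to 0.029 for Ncam1, and ganglion minus amacrine differences of -0.17 to 0.59 for Nptn. Nptn in photoreceptors did not pass with no filter (limma adjusted p = 0.333), gene-wise variances (adjusted p = 0.336) or medians (adjusted p = 0.134), and Sptbn1 did not pass without the ganglion cells of 2 stages (adjusted p = 0.136 and 0.116). The cause of these changes was not tested, except that fewer samples or more genes entered some fits by construction. No paired analysis was possible because the cells carry no replicate number that ties them across groups. Signals near the floor, in most cells for Alcam, Dscam and the sidekicks, limit what these arrays can show.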
